A study of Homo sapiens with 8 samples.

Results

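MicroRNA host genes are genes whose long primary transcript carries the hairpin of at least 1 microRNA. They were chosen here by name: GENCODE lists 84 human genes whose symbol begins with MIR and ends with HG. Of these, 40 were found in the short-read table by gene identifier and 38 as an assembled gene that covered the same span on the same strand (a Jaccard index of at least 0.5, the shared length over the joint length), and MIR17HG was taken by name because its assembled gene covered only part of the longer model in GENCODE release 44 (Jaccard index 0.305). A host was kept when it was above 0 in at least 3 of the short-read libraries, which left 53 host genes of 62635 genes listed. Of the others, 26 were matched but were above 0 in fewer libraries, 17 of them in none, and 5 were not matched. Just inside the matching threshold stood MIR9-3HG, with a Jaccard index of 0.582, and just outside it MIR503HG, with 0.433, whose assembled gene averaged 1823 normalized counts in chromatin and 87.0 in nucleoplasm.

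RNA was taken from HAP1, an adherent near-haploid human line derived from the leukemia line KBM-7, grown without any treatment. Nuclei were extracted with urea and detergent, the supernatant being called nucleoplasm and the pellet chromatin, and ERCC RNA standards were added to each fraction before RNA extraction. Both fractions of 3 independent cultures were sequenced as strand-specific short reads (3 chromatin and 3 nucleoplasm libraries), and chromatin RNA was also sequenced as long reads of direct cDNA (2 libraries). All groups are of this 1 line. The libraries are of bulk RNA, so more RNA per cell and more cells with the RNA cannot be told apart.

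A host transcript is made in the nucleus, in most cases by RNA polymerase II, and its hairpins are cut out there by the Microprocessor, a complex of the nuclease DROSHA and its partner DGCR8. The hairpins are exported by XPO5, cut again by DICER1 in the cytoplasm and loaded onto an Argonaute protein, which finds target mRNAs mainly through the seed of the microRNA. A host may carry several hairpins in a row, and the same mature microRNA may be encoded by hosts on different chromosomes. The short-read libraries measured the long host transcripts, not the mature microRNAs.

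The sequences below show what the hosts with the clearest values carry. All are RefSeq sequences on GRCh38.p14, read 5′ to 3′, and the capitals mark the seed (bases 2 to 8). Of the 63 annotated hairpins in the 32 hosts that could be tested, 52 had an entry, with 88 different mature sequences and 75 different seeds. MIR17HG is shown because it carries 6 hairpins within 787 bases of chromosome 13, from MIR17 (chr13:91350605-91350688) to MIR92A1 (chr13:91351314-91351391), and these 6 products fall into 4 seed groups.
hsa-miR-17-5p: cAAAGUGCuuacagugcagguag
hsa-miR-20a-5p: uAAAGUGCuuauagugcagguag
hsa-miR-18a-5p: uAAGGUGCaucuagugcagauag
hsa-miR-19a-3p: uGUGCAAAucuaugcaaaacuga
hsa-miR-19b-3p: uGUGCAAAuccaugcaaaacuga
hsa-miR-92a-3p: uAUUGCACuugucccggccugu

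In its hairpin, each arm of MIR17 can give a mature strand, and both arms are in capitals here.
MIR17: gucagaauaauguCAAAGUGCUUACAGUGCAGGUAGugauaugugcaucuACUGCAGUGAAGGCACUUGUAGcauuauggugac

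The seeds below are shown because they were found in more than 1 tested host, which was the case for 5 seeds. The let-7 seed was carried by MIRLET7A1HG on chromosome 9, MIRLET7BHG on chromosome 22, MIR99AHG on chromosome 21 and MIR4500HG on chromosome 13. MIR9-1HG on chromosome 1 and MIR9-3HG on chromosome 15 encode an identical miR-9, and MIR181A1HG on chromosome 1 and MIR181A2HG on chromosome 9 an identical miR-181a.
hsa-let-7a-5p: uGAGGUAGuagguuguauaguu
hsa-let-7b-5p: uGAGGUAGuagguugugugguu
hsa-let-7c-5p: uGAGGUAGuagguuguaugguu
hsa-let-7d-5p: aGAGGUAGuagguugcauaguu
hsa-let-7f-5p: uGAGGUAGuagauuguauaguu
hsa-miR-4500: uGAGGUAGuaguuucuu
hsa-miR-9-5p: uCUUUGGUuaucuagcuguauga
hsa-miR-181a-5p: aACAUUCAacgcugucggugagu
hsa-miR-181b-5p: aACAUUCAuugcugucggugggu

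The hairpin pairs of MIR222HG and of MIR29B2CHG also share a seed within the host.
hsa-miR-221-3p: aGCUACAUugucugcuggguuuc
hsa-miR-222-3p: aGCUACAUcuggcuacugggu
hsa-miR-29b-3p: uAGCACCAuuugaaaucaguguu
hsa-miR-29c-3p: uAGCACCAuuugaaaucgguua

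Recovered depths ran from 38895027 to 43804918 reads in chromatin and from 75737601 to 79523938 in nucleoplasm. The chromatin RNA MALAT1 was higher in chromatin (log2 fold change 3.09) and the mRNA of GAPDH in nucleoplasm (-2.35), as the sample titles say. Of the blood lineage markers PTPRC, SPI1, GATA1, MPO and CD3E were at 0 in all 6 libraries and CD34 and CD33 averaged at most 3.45 normalized counts. The row that holds HBG1 averaged 1550 in chromatin and 2447 in nucleoplasm but also covers other genes, so it cannot be read as HBG1. Of the markers of other adherent cells, VIM averaged 4212 in chromatin and 14304 in nucleoplasm, COL1A1 470 and 794, and KRT8 485 and 1110. EPCAM averaged 59.8 and 323, and PECAM1 was near 0 (1.46 and 0.878). The listed mitochondrial and ribosomal protein mRNAs (MT-CO1, MT-ND1, MT-CYB, RPLP0 and RPS3) were all higher in nucleoplasm, with log2 fold changes from -0.60 (MT-ND1) to -2.32 (RPLP0). The 53 hosts together held 0.103% to 0.107% of the gene counts of a chromatin library and 0.023% to 0.0236% of those of a nucleoplasm library.

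To ask how host transcripts divide between chromatin and nucleoplasm, the 3 libraries of each fraction were compared with limma over the 26066 genes that reached 10 normalized counts in 3 or more libraries. Of the 53 hosts, 32 passed that filter and 21 did not. In 23 of the 32, all 6 libraries reached 10 counts. A further 8 did so in every chromatin library but not in every nucleoplasm library, so they passed only through the fraction in which they were higher. A gene was called at an adjusted p under 0.05 and a change of more than 4-fold. By this rule 19 of the 32 tested hosts were called toward chromatin, or 59.4%, where 21.2% of all genes tested were. Of these 19, 13 were among the 23 with enough reads in both fractions. The share called among all genes with 10 counts in all 6 libraries was not taken, so the 13 have no comparison. None of the 32 hosts was called toward nucleoplasm by limma, edgeR or DESeq2, although in limma 4 hosts had an unadjusted p under 0.05 in that direction. In limma 8.47% of all genes tested were called toward nucleoplasm. Of the 3407 other long noncoding RNA (lncRNA) genes tested, only 23 were (0.68%), and 37.3% were called toward chromatin.

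By adjusted p alone, 24 tested hosts were higher in chromatin (44.2% of all genes tested) and 3 in nucleoplasm (45.2% of all genes tested). The other 5 did not pass. Of the 3407 other lncRNA genes tested, 2599 were higher in chromatin and 333 in nucleoplasm, shares close to those of the hosts. The median log2 fold change of the 32 hosts was 2.20, beside -0.02 over all genes tested. It was 1.53 over the 3407 other lncRNA genes tested and -0.39 over 12493 protein-coding genes. Without any filter on low counts the median over all 53 hosts was 2.06, beside 0.36 over all genes, and 28 were called toward chromatin (17.7% of all genes in that fit). Scaling to the ERCC standards instead moved the median of all genes to -1.33 and that of the hosts to 0.95. Hosts then stood 2.28 above the median of all genes, but only 9 were called. The share of all genes called under that scaling was not taken, so the 9 have no comparison. Without replicates being averaged, every chromatin library was above every nucleoplasm library for 37 of the 53 hosts (46.2% of all genes above 0 in at least 3 libraries), and the reverse held for 3 (37.5%). One of the 37, MIR2117HG, had 1 read in each of the 6 libraries, so only the size factors separated it, and 36 remain without it. Among the 32 tested hosts these numbers were 24 (44.6% of all genes tested) and 3 (46.0%).

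**Figure D1:**
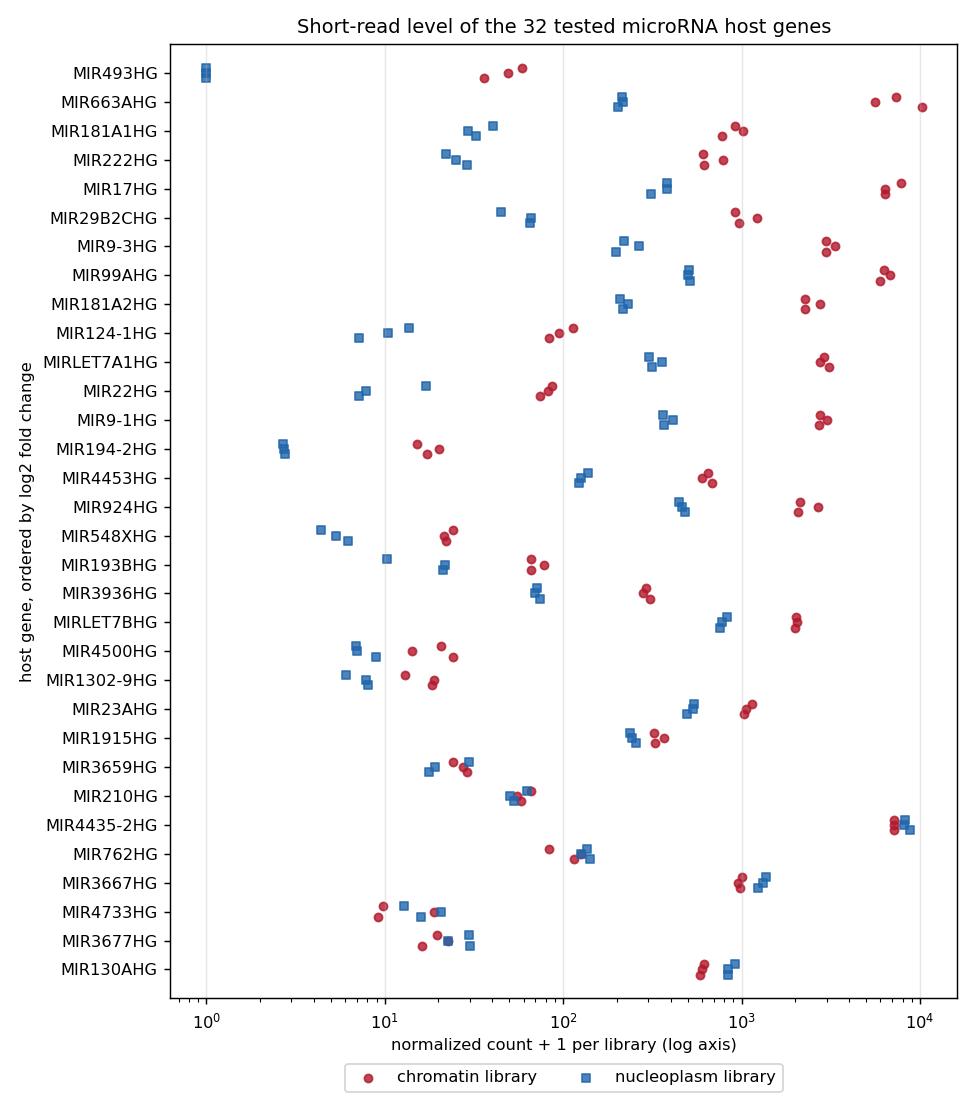
Normalized count plus 1 of each of the 32 tested host genes in the 3 chromatin (circles) and 3 nucleoplasm (squares) libraries, on a log axis, with hosts ordered by log2 fold change. The circles lie to the right of all squares for 24 hosts, to the left for 3, and the groups overlap for 5.

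MIR17HG, the host of the miR-17-92 cluster, which is known for driving proliferation in blood cancers, was among the tested hosts with the highest counts. Its normalized counts were 6330, 6337 and 7851 in the chromatin libraries and 309, 379 and 381 in the nucleoplasm libraries. The fractions did not overlap, and the third chromatin library stood above the others. MIR17HG had a log2 fold change of 4.26, with an SE of 0.11 and a limma adjusted p of 1.06846e-08. That change was above that of 94.7% of all genes tested and of 96.7% of the other lncRNA genes. The assembled gene spanned chr13:91347643-91362930 and held all 6 hairpins. The annotation places these in an exon of a listed transcript, but not in an exon of every transcript that spans them. Per kb of annotated exon, its chromatin level of 1193 counts ranked 2 among the tested hosts.

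The hosts of miR-181 are MIR181A1HG and MIR181A2HG, both with their hairpins in introns. MIR181A1HG had 773, 1015 and 918 counts in chromatin and 31.6, 28.4 and 39.7 in nucleoplasm (log2 fold change 4.73 ± 0.15, limma adjusted p = 1.64822e-08). MIR181A2HG had 2280, 2749 and 2278 in chromatin and 217, 231 and 208 in nucleoplasm (3.47 ± 0.09, limma adjusted p = 1.02444e-08). Both were thus far higher in chromatin in every library. The change of MIR181A1HG was 1.26 ± 0.19 log2 units larger than that of MIR181A2HG.

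The hosts of miR-9, a microRNA best known from neural progenitors, behaved alike in direction. MIR9-3HG had 2992, 3329 and 2955 counts in chromatin and 197, 265 and 220 in nucleoplasm (log2 fold change 3.77 ± 0.11, limma adjusted p = 1.27481e-08). MIR9-1HG had 2712, 3018 and 2747 in chromatin and 369, 413 and 362 in nucleoplasm (2.89 ± 0.07, limma adjusted p = 1.02444e-08). Neither host overlapped between fractions. The log2 fold change of MIR9-3HG was 0.88 ± 0.08 larger.

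The let-7 hosts spread more widely. Members of the let-7 family restrain growth genes and are blocked in undifferentiated cells by LIN28 proteins. MIR99AHG, which also hosts miR-99a and miR-125b, had 5936, 6825 and 6322 counts in chromatin and 510, 498 and 509 in nucleoplasm (log2 fold change 3.65 ± 0.06, limma adjusted p = 8.39325e-09). MIRLET7A1HG had 3072, 2737 and 2898 in chromatin and 314, 358 and 302 in nucleoplasm (3.16 ± 0.08). MIRLET7BHG had 1985, 2048 and 2031 in chromatin but 759, 775 and 828 in nucleoplasm, so that its change, 1.36 ± 0.05, missed the 4-fold rule while all chromatin libraries were above all nucleoplasm libraries. MIR4500HG was low, with at most 23.3 counts in any library (1.35 ± 0.27).

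These comparisons of hosts that share a seed were chosen after their values were seen. The difference between the hosts of a pair was taken within each library and compared between fractions by a two-sided exact permutation test. In 7 of the 8 pairs compared, its 3 chromatin values did not overlap with its 3 nucleoplasm values. Its direction was set by taking the host with the larger fold change first. No share was taken over other pairs of genes. All pairs but those of miR-9 and miR-181 reuse the same 4 let-7 hosts, so the 8 pairs are not separate observations. MIR4500HG was under 10 counts in every nucleoplasm library, so its pairs rest on few reads. The exact permutation test gave p = 0.1 in each of the 7 pairs without overlap, the smallest that 3 against 3 libraries can give. After Benjamini-Hochberg adjustment over the 8 pairs this became 0.114, so none passed, and with so few libraries none could. The difference in log2 fold change was 2.29 ± 0.06 (SE) between MIR99AHG and MIRLET7BHG, 1.80 ± 0.12 between MIRLET7A1HG and MIRLET7BHG, and 0.49 ± 0.14 between MIR99AHG and MIRLET7A1HG. MIR4500HG stood 2.30 ± 0.31 below MIR99AHG and 1.81 ± 0.24 below MIRLET7A1HG, and between MIRLET7BHG and MIR4500HG it was 0.0094 ± 0.28 (exact permutation p = 1).

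MIR222HG hosts miR-221 and miR-222, which are known for lowering the cell cycle inhibitor p27. It had 611, 783 and 605 counts in chromatin and 28.1, 24.1 and 21.1 in nucleoplasm (log2 fold change 4.71 ± 0.14, limma adjusted p = 1.55058e-08). MIR29B2CHG, the host of miR-29b and miR-29c, which act on collagen and DNA methyltransferase mRNAs, had 970, 1215 and 912 in chromatin and 64.1, 65.4 and 43.9 in nucleoplasm (4.15 ± 0.17, limma adjusted p = 5.20969e-08). Neither host overlapped between fractions. The MIR29B2CHG hairpins lie beyond the listed transcripts of the host, but inside its assembled gene at chr1:207801518-207879115.

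Several of these hosts held further assembled genes on the same strand with many reads, and these were examined after their values were seen. Within MIR222HG, a stretch at chrX:45747015-45755113 averaged 2103 ± 386 (SD, n = 3) counts in chromatin and 48.3 ± 9.32 in nucleoplasm (log2 fold change 5.42 ± 0.17). Its lower end is the annotated lower end of the MIR222 hairpin. Within MIR181A1HG, a stretch at chr1:198873517-198896871 averaged 3349 and 103 counts (5.00 ± 0.13), and within MIR29B2CHG one at chr1:207835275-207860050 averaged 2190 and 116 (4.21 ± 0.13). MIR99AHG held 3 with log2 fold changes from 5.50 to 5.82, beside 3.65 for its own assembled gene. These stretches were picked for their chromatin counts, so their fold changes are a description. Another one in MIR29B2CHG, at chr1:207801132-207801395, averaged 111 and 49.0 counts, with a log2 fold change of 1.18 ± 0.15.

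Among low hosts, MIR493HG was the farthest toward chromatin. It lies in the imprinted DLK1-DIO3 region of chromosome 14 and spans 10 hairpins. Its counts were 34.9, 48.0 and 58.2 in chromatin and 0 in all nucleoplasm libraries, at least 18.2-fold higher in chromatin against a floor of 3 reads per nucleoplasm library. The host of the neuronal miR-124, MIR124-1HG, had 82.7, 93.7 and 112 counts in chromatin and 6.14, 9.47 and 12.7 in nucleoplasm (log2 fold change 3.26 ± 0.25). MIR22HG had 73.4 to 85.6 counts in chromatin and 6.14 to 16.1 in nucleoplasm (3.04 ± 0.32). MIR194-2HG had 14.3 to 19.2 in chromatin and 6 reads over the 3 nucleoplasm libraries. No fraction overlapped with the other in these hosts. All of them passed the filter with the help of chromatin, in which they were higher.

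MIR663AHG was the second farthest toward chromatin of the tested hosts, yet its chromatin libraries lay far apart (SD 2327 around a mean of 7715). Its hairpin encodes miR-663a and the gene lies beside the centromere of chromosome 20 (chr20:26167817-26251546), where near-identical copies can share reads, so its level is uncertain. It had 10222, 5625 and 7297 counts in chromatin and 203, 217 and 214 in nucleoplasm (log2 fold change 5.14 ± 0.18, limma adjusted p = 2.67265e-08). The first chromatin library was thus well above the others, whereas the nucleoplasm libraries were nearly equal. MIR1302-9HG, in the repeated end of chromosome 9, is uncertain for the same reason, at 15.9 ± 3.28 (SD, n = 3) counts in chromatin and 6.33 ± 1.09 in nucleoplasm (log2 fold change 1.19 ± 0.26).

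The other called hosts changed less. MIR4453HG averaged 642 ± 44.1 (SD, n = 3) counts in chromatin and 128 ± 7.27 in nucleoplasm (log2 fold change 2.32), and MIR3936HG 292 ± 13.9 and 70.6 ± 2.03 (2.03). MIR924HG, a host of 593 kb on chromosome 18, had 2071, 2694 and 2127 counts in chromatin and 478, 465 and 443 in nucleoplasm (2.30 ± 0.10, limma adjusted p = 6.59483e-08). Inside it, on the same strand, lies the ribosomal protein pseudogene RPL7AP66, which went the other way with 364 counts in chromatin and 2297 in nucleoplasm (log2 fold change -2.65 ± 0.05). MIR548XHG (21.5 and 4.32 counts on average) and MIR193BHG (68.9 and 16.7) stood at 2.09 and 2.06, and both fell under the 4-fold rule when the third nucleoplasm library was left out (1.96 and 1.70). So did MIR193BHG without the second chromatin library (1.98) and MIR3936HG without the first (1.99).

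MIR23AHG, the host of miR-23a, miR-27a and miR-24, stayed under the 4-fold rule with 1038 to 1141 counts in chromatin and 491 to 540 in nucleoplasm (log2 fold change 1.05 ± 0.06). MIR1915HG was 0.47 ± 0.08 higher in chromatin. Under scaling to the ERCC standards the direction flipped for MIR23AHG (-0.27), MIR1915HG (-0.85) and MIR1302-9HG (-0.0046). Of the hypoxia-induced MIR210HG, 54.0 to 64.8 counts were found in chromatin and 49.1 to 61.7 in nucleoplasm, and of MIR3659HG 23.1 to 28.0 and 16.7 to 28.7. The fractions overlapped in both, and neither passed the test.

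The hosts with the lowest fold changes included rows that mix genes. MIR130AHG had 586, 602 and 614 counts in chromatin and 834, 839 and 917 in nucleoplasm (log2 fold change -0.52 ± 0.06, limma adjusted p = 3.41745e-05), but its assembled gene also holds the protein-coding gene CLP1. MIR4435-2HG, the host with the highest mean count, had 7107, 7112 and 7197 in chromatin and 8847, 8135 and 8255 in nucleoplasm (-0.24 ± 0.05, limma adjusted p = 1.24164e-03), and its assembled gene also holds ANAPC1. These values belong to the mixtures. MIR3667HG, with no coding gene inside, had 983, 960 and 1008 in chromatin and 1229, 1321 and 1368 in nucleoplasm (-0.41 ± 0.06, limma adjusted p = 1.29519e-04). In these 3 hosts the nucleoplasm libraries were all higher, but with every library scaled to the same total the sign flipped for MIR4435-2HG (0.23) and MIR3667HG (0.06).

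The remaining hosts with low fold changes did not pass the test. MIR762HG had 114, 125 and 82.3 counts in chromatin and 140, 125 and 134 in nucleoplasm (log2 fold change -0.33 ± 0.16). MIR3677HG had 15.1, 21.6 and 18.7 in chromatin and 29.0, 21.5 and 28.7 in nucleoplasm (-0.49 ± 0.21, limma adjusted p = 0.0525). MIR4733HG had 8.15, 18.01 and 8.78 in chromatin and 14.9, 19.8 and 11.8 in nucleoplasm (-0.44 ± 0.34). The fractions overlapped in all 3.

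The 21 hosts under the filter were at most 25.8 counts on average in chromatin (MIR205HG) and 5.78 in nucleoplasm (MIR4432HG). All chromatin libraries were above all nucleoplasm libraries in 13 of them, beside 51.2% of all genes above 0 in at least 3 libraries that were not tested. Apart from MIR2117HG, with its 1 read per library, these 12 were MIR122HG, MIR4280HG, MIR31HG, MIR4713HG, MIR583HG, MIR34AHG, MIR3663HG, MIR2052HG, MIR100HG, MIR1302-2HG, MIR365BHG and MIR205HG. The fractions overlapped in the other 8, which were MIR4527HG, MIR4307HG, MIR325HG, MIR202HG, MIR200CHG, MIR646HG, MIR4432HG and MIR378D2HG. In none of the 21 were all nucleoplasm libraries higher (11.2% of the genes not tested). MIR34AHG, the host of the p53 target miR-34a, averaged 6.49 ± 1.503 (SD, n = 3) in chromatin and 0.563 ± 0.976 in nucleoplasm.

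The place of the hairpin in the host was then compared, since a hairpin in an exon and one in an intron are removed from different parts of the transcript. An annotated exon of a listed transcript held a hairpin in 15 tested hosts, with a median log2 fold change of 2.68 and 10 called. In 16 hosts the hairpins lay only in introns, with a median of 1.70 and 8 called. Both groups ranged from below 0 to above 5. When a hairpin had to be in an exon of every transcript that spans it, the order turned, since these 6 hosts had a median of 1.84 and the other 26 one of 2.20. No order by hairpin position was thus stable.

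**Figure D2:**
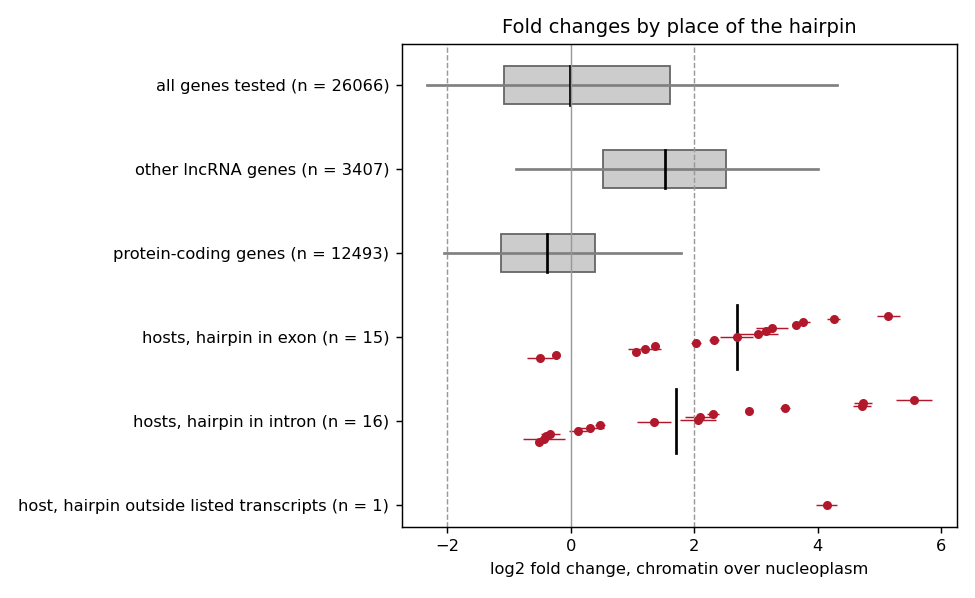
Log2 fold change of chromatin over nucleoplasm. Boxes show the middle 50% of genes, lines the 5th to 95th percentile and black bars the median, and each red point is 1 host with its SE. The exon hosts have their median at 2.68 and the intron hosts at 1.70, with wide overlap, and dashed lines mark the 4-fold rule.

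**Figure D3:**
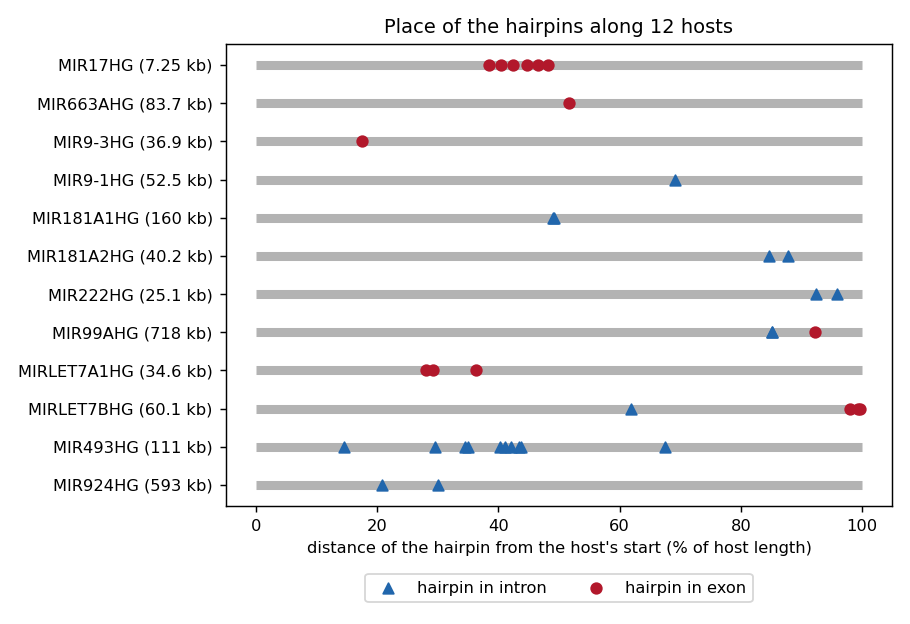
Distance of each annotated hairpin from the start of its host, as a percent of the length spanned by the host's listed transcripts, for 12 hosts. The hairpins of MIR17HG sit from 38.4% to 48.2% of the host, in an exon of a listed transcript but not of every transcript that spans them. Those of MIR222HG sit in an intron from 92.4% on.

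Having a hairpin was also set beside lncRNA genes with other names. Of the 50 other lncRNA genes tested that contain an annotated hairpin on their strand, 25 were called toward chromatin (50.0%) and the median log2 fold change was 1.88. Of 3357 without one, 1245 were called (37.1%) and the median was 1.52. Protein-coding genes with a hairpin (748, median -0.34) were close to those without (11745, median -0.39). Across the 32 tested hosts the log2 fold change had a Pearson r of 0.28 and a Spearman rho of 0.31 with the log2 of the annotated span, and 0.36 and 0.42 with the log2 of the mean chromatin count. The chromatin count is itself part of the fold change, so its correlation with it was in part set in advance. All these correlations are across genes, which share the libraries and are not independent replicates.

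Long reads of chromatin RNA were then searched for host transcripts, whose deposited levels do not tell whether any read covered a whole transcript. They gave a same-strand transcript above 0 TPM (a share of all transcripts, corrected for length) for 32 of the 53 hosts in at least 1 library and for 23 in both. Of the 32 tested hosts these were 29 and 22. Among the hosts under the filter, MIR4713HG was above 0 in both libraries (0.591 and 0.965 TPM). MIR31HG (0.279 TPM) and MIR1302-2HG (14.5 TPM) were above 0 in the first library only. Of 949 listed transcripts of the 53 hosts, 125 were above 0 and 56 in both libraries, so most listed isoforms were given as 0.

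The highest summed levels in long reads were those of MIR924HG with 46.4 and 51.6 TPM in the first and second library, MIR99AHG with 44.2 and 41.8, and MIR9-1HG with 11.6 and 28.9. MIR924HG spread over 20 transcripts above 0, of which the highest (ENST00000656839.1) had 20.1 and 10.9 TPM, and MIR99AHG over 24. MIR17HG had 19.3 and 19.8 TPM over 2 transcripts, of which ENST00000400282.6 held 14.1 and 10.1, and MIRLET7A1HG 11.1 and 11.2. The libraries were close for these hosts other than MIR9-1HG. They were far apart for MIR222HG, which was at 0 in the first library and at 8.90 in the second.

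Short and long reads ranked the hosts only in part alike. Across the 32 tested hosts the log2 chromatin count per kb of annotated exon and the log2 of TPM + 0.1 had a Pearson r of 0.48 and a Spearman rho of 0.52, which is a description across genes. MIR663AHG ranked 3 of the tested hosts by short-read count per kb (1167) but had 0.145 TPM in the first long-read library and 0 in the second, and without it r was 0.61. MIR181A2HG ranked first per kb (3378), over an annotated exon length of only 0.721 kb, and had 3.19 and 2.45 TPM. The tested hosts MIR493HG, MIR194-2HG and MIR548XHG were at 0 in both long-read libraries. TPM holds no depth, so a value of 0 gives no upper limit.

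**Figure D4:**
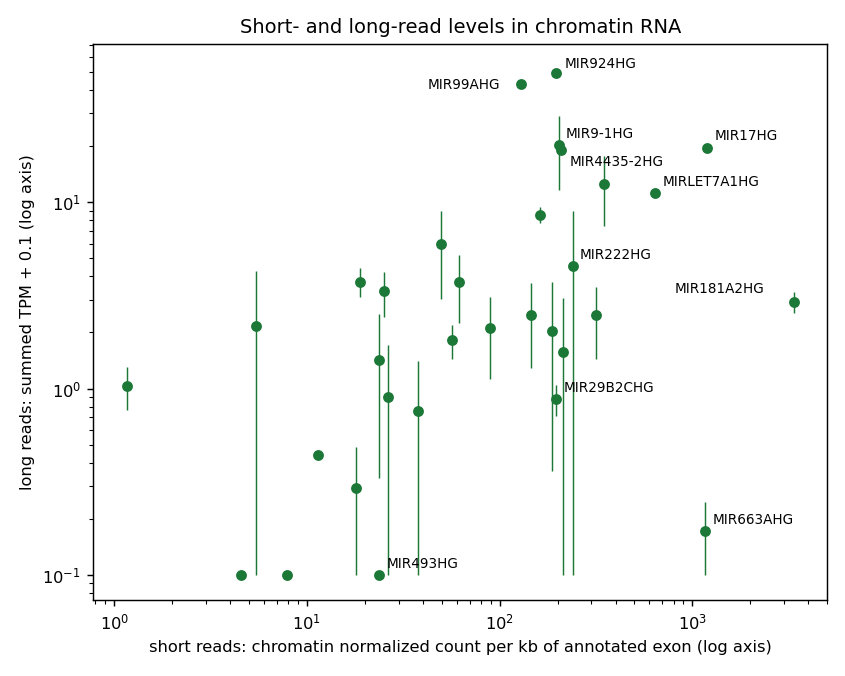
Chromatin level of the 32 tested hosts in short reads (mean normalized count of 3 libraries per kb of annotated exon) against long reads (mean of 2 libraries of the summed TPM plus 0.1, with bars from the lower to the higher library), both on log axes. MIR924HG and MIR99AHG are highest in long reads, and MIR663AHG stands low in them for its 1167 counts per kb in short reads.

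Long-read transcripts assembled on the strand opposite to a host were found inside 12 of the 32 tested hosts, and in 8 hosts their summed TPM over both libraries was above that of the host's own strand. At MIR924HG these had 65.8 and 88.3 TPM, at MIR17HG 20.5 and 25.9, at MIR181A1HG 12.3 and 10.5, at MIR29B2CHG 5.94 and 11.3, at MIR181A2HG 12.3 and 5.65, at MIR3667HG 7.71 and 12.9, at MIR193BHG 3.36 and 0, and at MIR4500HG 0 and 2.22. At MIR99AHG they had 18.3 and 24.2 TPM, below the host's own strand. In the strand-specific short reads, no gene was listed on the opposite strand over MIR17HG, MIR181A1HG, MIR29B2CHG or MIR193BHG, the 3 listed over MIR924HG were at 0 in all 6 libraries, and those over MIR3667HG averaged 0 in chromatin and 0.282 in nucleoplasm. The opposite strand did hold expressed genes at MIR181A2HG, which NR6A1 overlaps (410 counts in chromatin), and at MIR4500HG, where 2 genes that include SLITRK5 summed to 3394. Over MIR99AHG the opposite strand averaged 33.1 counts in chromatin, or 0.52% of the host. The direct cDNA kit does not mark the strand of the RNA, and its part in these values was not tested.

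Genes that process microRNAs were compared from a list of 43, of which all but LIN28A passed the filter. No one of the 42 was called toward chromatin by limma (21.2% of all genes tested, but only 3.94% of the 12493 protein-coding genes tested). Toward nucleoplasm 3 were called, or 7.14%, between the 5.72% of protein-coding genes and the 8.47% of all genes tested. By adjusted p alone 18 were higher in chromatin (44.2% of all genes tested) and 23 in nucleoplasm (45.2%). Their median log2 fold change was -0.46, beside -0.39 over the protein-coding genes tested. With every library scaled to the same total, 3 were called toward chromatin and 0 toward nucleoplasm. The shares of all genes called were not taken under that scaling.

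In the nuclear step the Microprocessor subunits went opposite ways: the mRNA of DGCR8 averaged 5086 ± 156 (SD, n = 3) counts in chromatin and 1314 ± 69.0 in nucleoplasm (log2 fold change 1.95 ± 0.05, limma adjusted p = 1.18602e-08), and that of DROSHA 5419 ± 74.5 and 7160 ± 115 (-0.40 ± 0.04, limma adjusted p = 1.49188e-05), which turned to 0.06 when libraries were scaled to the same total. Of the export factors XPO5 was lower in chromatin (-0.76 ± 0.04, limma adjusted p = 2.80208e-07), and RAN, whose GTP-bound form drives export, was called toward nucleoplasm (-2.15 ± 0.07, limma adjusted p = 1.75623e-08). The chaperones HSP90AA1 (-2.31 ± 0.12) and HSP90AB1 (-2.08 ± 0.09), which help to load Argonaute, were the other genes called. HSP90AB1 missed the 4-fold rule without the second chromatin library (-1.97) and in DESeq2 (-1.98). DICER1 (0.15 ± 0.04) and AGO2 (0.23 ± 0.05) differed little, and both turned negative under ERCC scaling (-1.18 and -1.10). The TSNAX row also holds other genes.

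**Figure D5:**
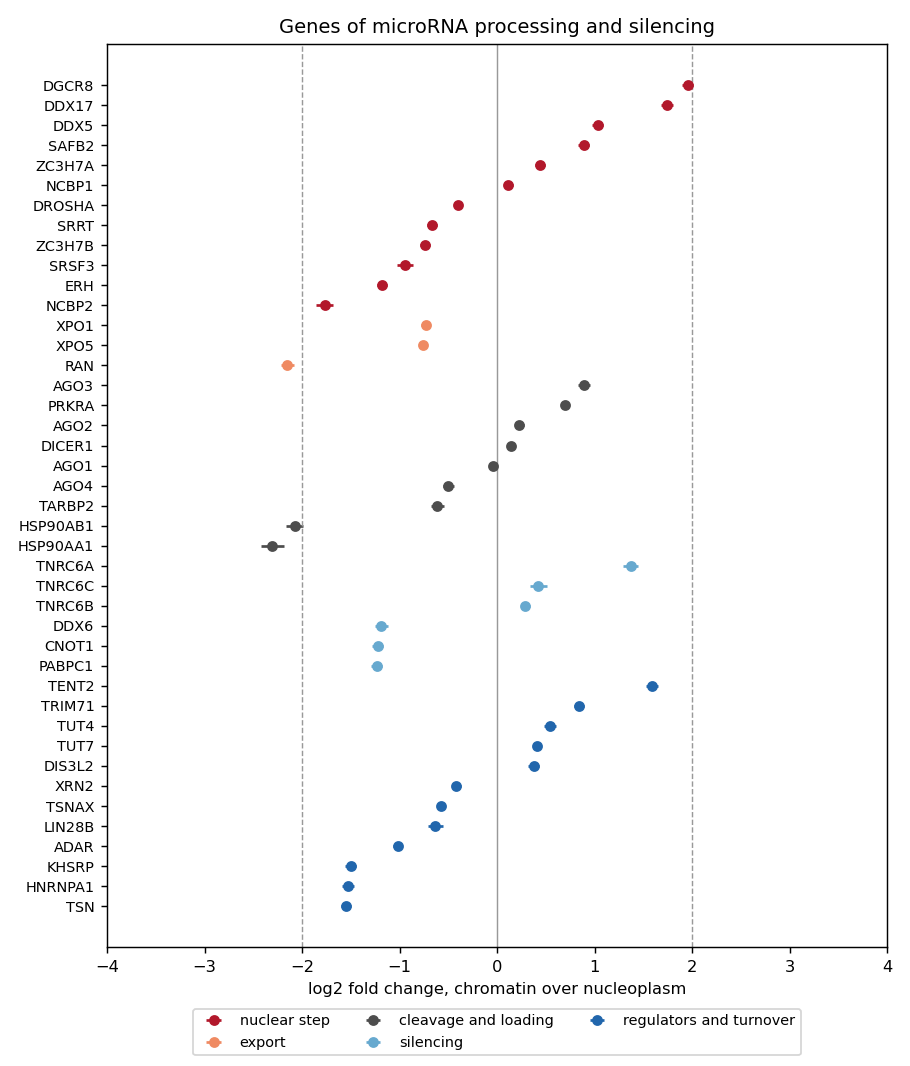
Log2 fold change of chromatin over nucleoplasm, with SE, of the 42 tested genes of microRNA processing and silencing, grouped by step. All lie below the upper dashed line of the 4-fold rule, with DGCR8 nearest to it at 1.95, and RAN, HSP90AB1 and HSP90AA1 lie past the lower line.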

How the data were processed

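The sample titles gave the groups. The field for the RNA fraction names chromatin for the nucleoplasm libraries too. For short reads the authors aligned with HISAT2 2.1.0 (version from the submitters' processing notes) to hg38, assembled and counted with StringTie and divided counts by DESeq2 size factors. The deposited values are thus a normalized signal per gene. Each was a whole multiple of its library's smallest value in 100% of cases, which gave whole reads, and counting floors cover counting error only. The long-read values deposited by the authors are TPM per transcript, made with minimap2 and StringTie. Whether reads had been given a strand first is not stated.

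Genes were tested in limma 3.58.1 under R 4.3.3, with the trend option and no covariates, on log2 values after a pseudocount of 1, which understates the fold of low genes, with Benjamini-Hochberg adjustment over 26066 genes spanning more than 200 bases. Alternatives were edgeR 4.0.16, DESeq2 1.42.0, other pseudocounts, filters, scalings and matching thresholds, a replicate block and libraries left out. Exon lengths and hairpins came from GENCODE release 44. Full values were given for MIR17HG, MIR663AHG, the 10 called hosts with the largest fold change, the 5 with the lowest, the 5 most abundant and the 3 highest in long reads, and for the called processing genes with DROSHA, DGCR8, XPO5, DICER1 and AGO2. Hosts and lists were chosen with earlier results of these data known. Replicates came from independent cultures of 1 line.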

Additional observations from a re-analysis of the deposited data

How the results depend on the processing

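The number of hosts called toward chromatin, 19, stayed within 1.5 times under the other settings, from 14 (of 22 hosts with a mean of at least 50 counts) to 28 (of 53 without a filter), but not under the same ERCC total, where it was 9. None was called toward nucleoplasm under any setting. Shares of all genes called toward chromatin were taken for the main, unfiltered, edgeR and DESeq2 fits only, so the other counts lack that comparison. Left-out libraries gave 17 to 19 calls and medians from 2.15 to 2.27. The median of 2.20 kept its sign, at 1.89 with a pseudocount of 5, 2.60 for hosts averaging 50 or more, 2.06 without a filter, 2.63 with the same total, 0.95 with the same ERCC total, 2.33 with edgeR, 2.41 with DESeq2, 2.30 with a Jaccard index of at least 0.3 or 0.8, and, added after seeing the data, 2.31 without the 2 hosts whose row holds a protein-coding gene. The median of hosts with a hairpin in an exon minus that of all other tested hosts, MIR29B2CHG included, was 0.63 and turned to -0.36 under the strict definition.

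Same-numbered libraries of the fractions were weakly alike (r of deviations 0.087, 0.053 and 0.063), so the numbers were not taken to pair them, although each library was most like its own number. The replicate block gave 19 called hosts and a median of 2.20.

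Directions turned under the same ERCC total for MIR1302-9HG (-0.0046), MIR23AHG (-0.27), MIR1915HG (-0.85), MIR3659HG (-0.96), MIR210HG (-1.19), DICER1 (-1.18) and AGO2 (-1.10), and under the same total for MIR4435-2HG (0.23), MIR762HG (0.13), MIR3667HG (0.056) and DROSHA (0.063). Processing genes called toward chromatin were 3 with the same total, 1 (DGCR8) with DESeq2 (22.4% of all genes) and 5 at a 2-fold minimum. Those called toward nucleoplasm were 0 with the same total, 16 with the same ERCC total and 12 at a 2-fold minimum. With libraries left out, 2 to 3 were called toward nucleoplasm. Except for DESeq2 toward chromatin, no share of all genes called was taken under these settings, so these counts have no comparison. Hosts seen in long reads were 27 and 28 with either long-read library left out. The causes were not tested. Changes of hosts under 10 counts, and any long-read level at 0, are beyond what this depth can resolve.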
